A study of Mus musculus with 768 samples.

Results

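The cells described are 155 luminal cells of the mouse mammary gland, sorted 1 per well from 1 plate of the genotype WAP-CRE; R26-N1ICD-EGFP. They were chosen by their own expression values, among the 283 cells of that plate, of 384 wells, with at least 50000 reads and 1000 detected genes. A member had Krt8 and at least 2 of Kit, Elf5, Aldh1a3 and Ltf at 10 CPM or more, where CPM is a gene's reads scaled to the same total in every cell. It also had fewer than 3 of 7 hormone-sensing markers (Prlr, Foxa1, Wnt4, Pgr, Esr1, Cited1, Areg) at 10 CPM and fewer than 3 of 5 leukocyte markers (Ptprc, Cd53, Arhgdib, Coro1a, Laptm5) at 20 CPM. Members made up 54.8% of the kept cells of the plate (Clopper-Pearson 95% interval 48.8 to 60.7). The other 128 kept cells were 52 cells with leukocyte markers, 7 with hormone-sensing markers and 69 others that missed Krt8 or the progenitor markers.

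All animals were C57BL/6 mice carrying Cre recombinase driven by the promoter of Wap, a milk protein gene, so recombination depends on cells that have used that promoter. In the first group Cre released the intracellular, constitutively active part of the receptor Notch1 (N1ICD) with the green reporter EGFP from the Rosa26 locus. In the control group, WAP-CRE; R26-tdTomato, it released a red reporter from the same locus and no active Notch1. Inguinal glands were dissociated, reporter-positive cells were sorted, and Smart-Seq2 libraries, which cover whole transcripts and carry no molecular identifiers, were made from single cells. For both plates the design text sets 3 to 4 months beside the word lactation, and whether this is the age of the mice or a time of or after lactation is not clear. No animal is named. Each plate is therefore 1 sample, no p-value can be given, and N1ICD, the reporter and the plate cannot be told apart in any comparison with the control.

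Luminal progenitors of the mammary gland carry the receptor tyrosine kinase Kit, and the Ets factor Elf5 directs their alveolar fate. Alveolar cells make milk proteins: the caseins are switched on by prolactin through the transcription factor Stat5, which binds palindromic GAS elements in their promoters. Notch receptors are cut after binding a ligand, and the released intracellular part acts with RBPJ on target genes of the Hes and Hey families. In the mammary epithelium Notch signalling is known for promoting the luminal fate.

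Among the members, casein levels ran from 0 to very high, and the cartilage glycoprotein gene Lect1 ran in the opposite direction. The promoters of Csn2, Csn1s1 and Lect1 are therefore shown, as the 250 bases before the RefSeq start site of build GRCm38.p6, read 5′ to 3′ on the gene's own strand. The caseins lie in 1 stretch of chromosome 5, with Csn1s1 at 87666208 to 87682578, Csn2 at 87692619 to 87699429, Csn1s2a at 87774450 to 87788798 and Csn3 at 87925579 to 87932550. Lect1, which RefSeq lists as Cnmd, lies on chromosome 14 at 79637682 to 79662194. Capitals mark the letters TTCNNNGAA, the GAS pattern of Stat factors. The promoters are chr5:87699426-87699675 on the minus strand for Csn2, chr5:87665958-87666207 on the plus strand for Csn1s1 and chr14:79662184-79662433 on the minus strand for Cnmd.
Csn2: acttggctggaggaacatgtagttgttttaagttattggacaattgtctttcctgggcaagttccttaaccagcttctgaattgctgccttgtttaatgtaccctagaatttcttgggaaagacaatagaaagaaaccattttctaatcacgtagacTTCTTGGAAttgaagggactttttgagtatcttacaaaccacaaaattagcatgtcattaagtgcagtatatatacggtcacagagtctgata
Csn1s1: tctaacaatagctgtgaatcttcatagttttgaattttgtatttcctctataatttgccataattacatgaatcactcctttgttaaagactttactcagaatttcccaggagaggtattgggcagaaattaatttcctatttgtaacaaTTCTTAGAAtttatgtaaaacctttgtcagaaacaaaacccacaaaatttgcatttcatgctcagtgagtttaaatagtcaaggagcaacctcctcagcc
Cnmd: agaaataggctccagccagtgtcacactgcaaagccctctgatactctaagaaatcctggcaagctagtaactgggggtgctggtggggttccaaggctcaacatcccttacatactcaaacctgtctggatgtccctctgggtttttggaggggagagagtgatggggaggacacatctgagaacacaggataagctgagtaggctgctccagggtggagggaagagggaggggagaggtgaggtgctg

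The GAS letters began 93 bases before the start of Csn2 and 100 bases before that of Csn1s1, and were not found in the same window of Csn1s2a. The Csn3 promoter was not analysed here. They were searched on both strands and occur in 7.02% of the 32851 promoters of the table, 2306 in number. The letters GTGGGAA, the core that RBPJ binds, were searched in the same way in the Cnmd promoter and were not found in this window. They occur in 5.42% of all promoters. The same window of the Notch target Nrarp also lacked them, as did that of Notch1. The promoters of Hes1 and Hey1 were not analysed here. A match describes the sequence and shows no binding, and a missing match does not show that binding is absent.

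The luminal epithelial part of the label was checked against Krt18 and Epcam, which the rule did not use. The luminal keratin Krt18 was present in every member, at 27.3 CPM in the lowest cell, 3303 CPM in the median cell and 12451 CPM in the highest. The epithelial adhesion gene Epcam ranged from 4.05 to 16726 CPM with a median of 2826 CPM. For the progenitor part, the luminal progenitor list includes Kit, Elf5, Aldh1a3 and Ltf of the rule. Against the 128 other kept cells 11 of its 22 measured genes were at least 2-fold higher and 3 lower. Those 11 include Kit, Elf5, Aldh1a3 and Ltf, which the choice of members raised. The count therefore does not check the label. The others were Sox10, Ehf, Elf3, Plet1, Mfge8, Lmo4 and Tnfrsf11a. Over all 10928 genes 12.9% were higher and 19.5% lower. The lower list genes were Itgb3 (0.70 and 30.4 CPM), Cxcr4 (2.61 and 15.1 CPM) and Slpi (15.6 and 37.0 CPM). Against the 69 other cells without leukocyte or hormone-sensing markers, 8 of 20 measured list genes were higher and 1 lower. Over all 10414 genes of that comparison 14.2% were higher and 15.6% lower. Members held 51736 to 615615 reads with a median of 375872, and a median of 2791 detected genes (1228 to 7598). They were spread over the plate, with 76 in well columns 1 to 12 and 79 in columns 13 to 24. Reads of the reporter eGFP were found in 73 members, 47.1% (interval 39.0 to 55.3), against 26.1% of the 69 other cells. eGFP reads were also found in 46 of the 217 control cells that met the same rule, but no control cell held more than 2, whereas 66 members held 5 or more.

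Markers of other cell types were present in part of the members. Summed over 18 genes, basal and myoepithelial markers reached 2.65 CPM in the median member and 9249 CPM in the highest, against 5.54 and 1739 CPM in the control cells of the same rule. Of that list 4 genes reached 10 CPM over the members. The leukocyte and hormone-sensing lists include genes that the rule limited, so their low levels follow in part from the choice of members. Summed leukocyte markers were at 3.81 CPM in the median member and 3324 CPM in the highest, with 1 of 21 genes at 10 CPM or more. Summed fibroblast, endothelial, adipocyte and red blood cell markers were each at 0 in the median member. The adipocyte genes Adipoq, Plin4, Cidec, Retn and Cfd were at 0 in all members. Summed hormone-sensing markers were at 326 CPM in the median member and 8551 CPM in the highest, with 5 of 18 genes at 10 CPM or more, and Foxa1 and Tnfsf11 at 0 in every member. The part of these genes in the results that follow was not tested, except where values without the cells concerned are given.

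The markers of the rule chose the members, so their values are descriptions. Kit reached 10 CPM in 145 of 155 members (93.5%) and Elf5 in 125 (80.6%). Aldh1a3, a retinaldehyde dehydrogenase, reached it in 86 (55.5%) and Ltf, the secreted iron-binding defence protein lactoferrin, in 74 (47.7%). All 4 markers were present together in 30 members (19.4%, interval 13.5 to 26.5), 3 in 60 and 2 in 65. The combination of Kit and Elf5 alone was found in 32 members. In the median member Krt8 was at 691 CPM, Kit at 719.7 CPM, Elf5 at 102.8 CPM and Aldh1a3 at 132.4 CPM. Ltf ranged from 0 through a median of 7.61 CPM to 32100 CPM, so most members held little Ltf while a minority held very high levels. At the Krt8 threshold the 3 lowest members were at 12.8, 14.8 and 22.6 CPM, and the 3 cells that missed membership through Krt8 alone were at 2.93, 2.60 and 0 CPM. For the second-highest progenitor marker the nearest members were at 13.1, 14.2 and 14.9 CPM, and the nearest cells outside at 8.16, 8.03 and 6.10 CPM.

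**Figure D1:**
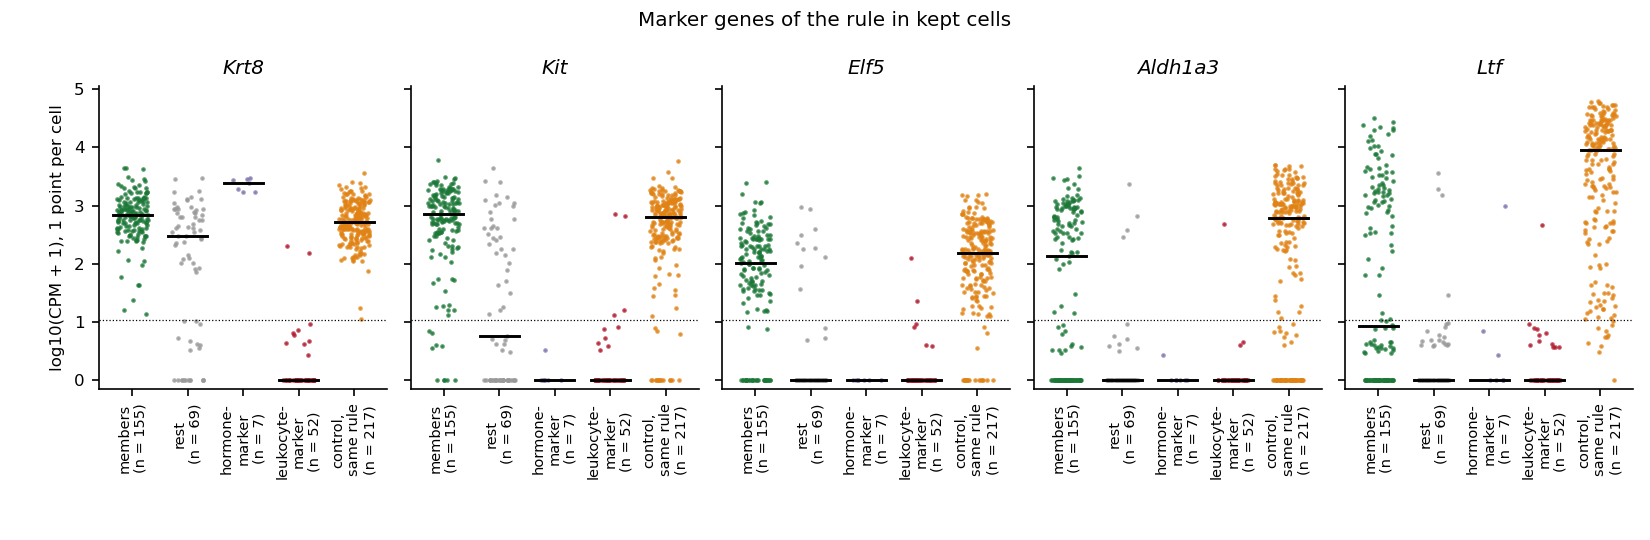
Level of the rule's 5 markers, as log10 of CPM plus 1, in the N1ICD cells of the rule, the other kept cells of that plate by class (69 others, 7 with hormone-sensing and 52 with leukocyte markers) and the control cells of the same rule; each point is 1 cell, bars mark medians and the dotted line is 10 CPM. The 155 members sit at a median of 7.61 CPM for Ltf against 8933 CPM in the 217 control cells, while the medians of Kit are 719.7 and 635 CPM.

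The correlations among the progenitor markers were near 0 in the members, whose choice by at least 2 of these 4 genes shapes such values. Spearman's correlation over the 155 cells, after each was thinned to 50000 reads, was 0.08 between Kit and Ltf, 0.11 between Kit and Elf5 and -0.05 between Elf5 and Ltf. These and the later correlations are descriptions over cells of 1 plate. None of the 4635 genes compared reached a correlation of 0.3 with Kit. The genes nearest to Ltf were Fmo2, a flavin monooxygenase, at 0.35, the prohormone-processing enzyme Cpe at 0.34 and Clca2 at 0.32.

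Casein levels were either low or high in most members. Csn3, which encodes the casein that stabilises the milk micelle, was under 10 CPM in 53 members, between 10 and 100 CPM in 5 and at 100 CPM or more in 97, of which 73 exceeded 1000 CPM. Few cells therefore lay between low and high, and Ltf had the same gap, with 81, 6 and 68 members in these ranges. The gap was not particular to these genes or to the members. Hey1 had 95, 6 and 54 members in these ranges and Alox15 69, 6 and 80. Hes1 and Trf had 13 and 14 members in the middle range. Of the 69 other cells of the plate, 35, 1 and 33 lay in these ranges for Csn3. The cause of the gap was not tested. Csn1s1 had 63 members under 10 CPM, 6 between 10 and 100 CPM and 86 at 100 CPM or more. Csn2, the beta casein, was under 10 CPM in 93 members and at 100 CPM or more in 54. In the median member Csn3 stood at 688.3 CPM, Csn1s1 at 389.6 CPM and Csn2 at 0, and the highest cells reached 27552, 23382 and 12754 CPM. Casein reads also appeared in cells that should not express the genes: Csn3 was read in 21.2% of the 52 leukocyte-marker cells after thinning, against 67.1% of members, with median depths of 339930 and 375872 reads before thinning. At 10 CPM the counts were 7 of 52 and 102 of 155.

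The milk genes varied together. Csn2 correlated with Csn3 at 0.66, with Csn1s1 at 0.65 and with Trf, the iron carrier transferrin, at 0.64. It correlated with the lipid droplet coat gene Plin2 at 0.48 and with the peptide hormone gene Cck at 0.42. The progenitor markers did not follow this axis closely, since the correlation with Csn3 was -0.01 for Kit, 0.08 for Ltf and 0.23 for Elf5. The number of reads per cell had a correlation of 0.19 with Lect1, 0.15 with Hes1, 0.13 with Csn3, 0.13 with Kit, 0.06 with Ltf and -0.06 with Krt14.

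Lect1, which encodes chondromodulin, a matrix glycoprotein known from cartilage, was highest where the caseins were low. It was under 10 CPM in 96 members, between 10 and 100 CPM in 5 and at 100 CPM or more in 54, with a maximum of 6979.9 CPM. Csn3 reached 10 CPM in 27 of the 59 members with Lect1 at that level (45.8%, interval 32.7 to 59.2) and in 75 of the other 96 (78.1%, interval 68.5 to 85.9). The correlation with Lect1 was -0.48 for Csn3, -0.43 for Csn1s1 and -0.53 for Trf. It was 0.57 for Perp, a membrane gene of desmosomes, 0.49 for the lipoxygenase gene Alox15, 0.46 for the protease inhibitor gene Wfdc2 and 0.44 for the receptor gene Gprc5a. Lect1 reads were rare in leukocyte-marker cells, at 5.77% after thinning against 36.8% of members, and none of those 52 cells reached 10 CPM.

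**Figure D2:**
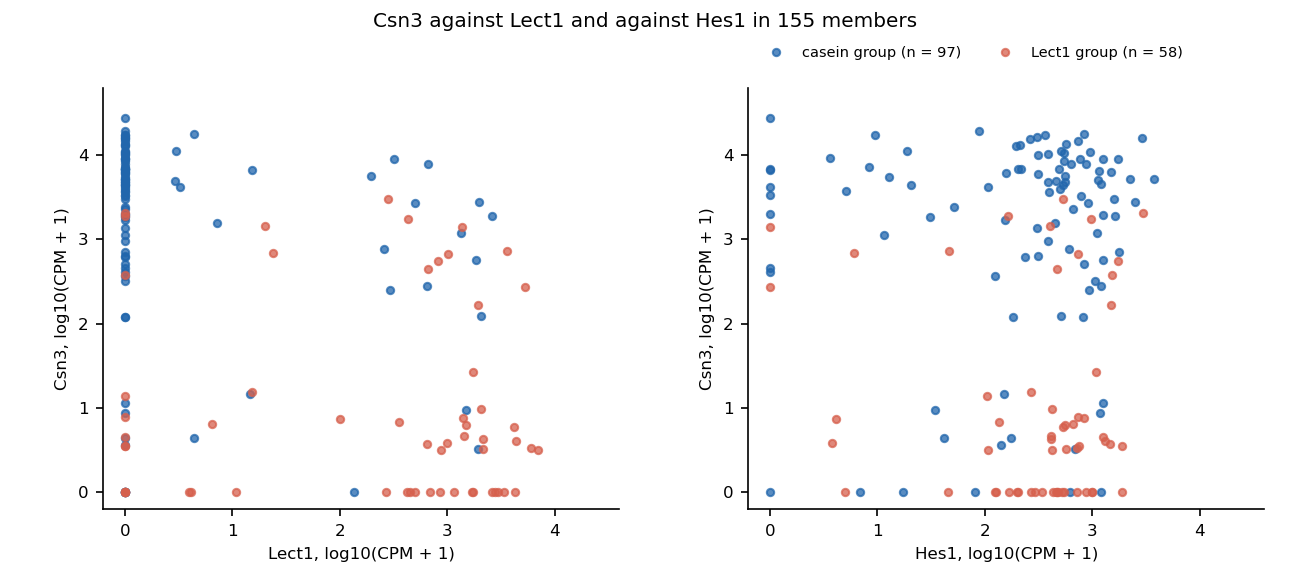
Csn3 against Lect1 (left) and against Hes1 (right) in each of the 155 members, both as log10 of CPM plus 1; each point is 1 cell, in blue for the casein group and in red for the Lect1 group of the clustering. Csn3 is at 10 CPM or more in 27 of the 59 members with Lect1 at that level and in 75 of the other 96, and in 87 of the 135 members with Hes1 at that level.

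Hes1 and Hey1, both Notch targets, differed in their distribution over the members. Hes1, a transcriptional repressor, was present in 135 members at 10 CPM or more, with a median of 458.8 CPM and a maximum of 3773 CPM. Hey1 reached that level in 60 members only. The correlation between the 2 genes was 0.02. Hey1 went with the caseins, at a correlation of 0.44 with Csn3 and -0.37 with Lect1, whereas Hes1 had a correlation of 0.11 with Lect1. Csn3 reached 10 CPM in 54 of the 60 members with Hey1 and in 48 of the other 95. Notch1 was at a median of 252 CPM, and its rows do not separate reads of the transgene from reads of the endogenous gene. Reads of eGFP correlated with Notch1 at 0.25, with Hes1 at 0.18, with Lect1 at 0.16 and with Csn3 at -0.02.

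Clustering of the members, with the genes of the rule left out, gave 5 clusters of 47, 39, 34, 19 and 16 cells. At a lower resolution they formed a casein group of 97 cells and a Lect1 group of 58. The groups were made from these genes, so the values that follow describe them. Median depth was 375872 reads in the casein group and 374044 in the Lect1 group. eGFP was read in 43 and 30 of their cells, and 44 and 32 of them lay in well columns 1 to 12. Both groups therefore held cells with and without reporter reads, from both sides of the plate.

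In the casein group Csn3 reached 10 CPM in 85 of 97 cells with 5383 CPM over the summed reads, against 17 of 58 cells and 241 CPM in the Lect1 group. Csn2 reached it in 55 and 7 cells, at 1376 and 69.1 CPM. Trf was present in all 97 cells of the casein group. In the Lect1 group it was present in 38 of 58. Plin2 was at 1388 CPM in the casein group and 175 CPM in the Lect1 group. Of 11 measured milk protein genes 8 were at least 2-fold lower in the Lect1 group and 1 was higher, with a median log2 ratio of -3.63. Over all 9987 genes measured in this pair 13.2% were at least 2-fold lower and 14.5% higher, with a median of 0.06. Lower genes of that group outside the milk genes included the receptor gene Fgfr3 (log2 ratio -4.81), the chitinase-like gene Chil1 (-4.23), the water channel gene Aqp1 (-3.80) and Apoe (-3.79).

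The Lect1 group held Lect1 in 42 of 58 cells at 1559 CPM, against 17 of 97 cells and 194 CPM in the casein group. Alox15 was present in 55 of its cells and in 31 of the casein group. Alox12e, a related lipoxygenase gene, was at 4089 CPM against 1302 CPM. Perp was at 2095 CPM against 133 CPM. Ccnd1, which encodes cyclin D1, was at 1892 CPM in the Lect1 group and at 435 CPM in the casein group, with medians over cells of 1595 and 226 CPM. The largest log2 ratios belonged to the collagen genes Col6a1 (8.67) and Col6a2 (8.49), the glycosyltransferase gene Mgat3 (7.74) and Faah, which breaks down fatty acid amides (7.22). Much of this came from a cluster of 19 cells described next: Col6a1 was at 1451 CPM there and at 45.9 CPM in the other cells of the group, and Col6a2 at 1179 and 28.5 CPM. In the cluster of 39 cells, which held most of those other cells, 75.7% of the Col6a1 reads came from 1 cell. The cadherin gene Cdh15 followed at 6.55, the Wnt pathway inhibitor Nkd2 at 6.43 and the mucin-like gene Pdpn at 6.40. The progenitor markers were spread over both groups. Kit reached 10 CPM in 90 of 97 and 55 of 58 cells, Ltf in 48 and 26, Aldh1a3 in 48 and 38, and Elf5 in 85 and 40. Of 10 measured Notch targets 5 were at least 2-fold lower in the Lect1 group and 1 was higher, with a median of -0.62. Hes1 was at 620 CPM in the Lect1 group and 608 CPM in the casein group, and Hey1 at 84.2 and 419 CPM.

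Within the Lect1 group a cluster of 19 cells stood apart by its genes. Its leading genes were the basal keratin Krt14, the retinol uptake receptor Stra6, Fam180a, Col6a2 and Col6a1. Krt14 was at 1425 CPM there, and at 10 CPM or more in 8 of the 19 cells. The basal genes Krt5 and Trp63 reached 10 CPM in none of the 19, and Acta2, the smooth muscle actin of myoepithelial cells, in 2. Csn3 was at 14.3 CPM, Trf at 97.0 CPM and Elf5 at 42.1 CPM in these cells, the lowest of the 5 clusters. Lect1 was at 1629 CPM, Alox15 at 4431 CPM, Perp at 3854 CPM and Hp at 8539 CPM, the highest of the 5 by summed reads. For Lect1 30.1% of these reads came from 1 cell. Its median cell was at 358 CPM, below the 814 CPM of the cluster of 39 cells. The cells held a median of 3775 detected genes, against 2791 in all members, and 6 of them exceeded the plate's doublet limit on detected genes. The part of doublets was not tested. At resolution 0.5 these 19 cells did not separate from the Lect1 group of 58. At resolution 1.2 all 19 formed a cluster of their own, and with 1000 variable genes 17 of them lay in a cluster of 18. At least 3 genes of the G2 and M phase list were read at 10 CPM in 5 of the 19, against 4 of the 97 cells of the casein group.

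The cluster of 39 cells shared the Lect1 side without Krt14. Lect1 was at 1513 CPM, Alox15 at 2873 CPM and Csn3 at 374 CPM, while Krt14 was at 6.0 CPM. The cluster of 34 cells was the highest in Csn3 (8366 CPM), Csn2 (2153 CPM), Trf (25044 CPM) and Hey1 (586 CPM). Other milk genes were highest elsewhere: Csn1s2a (656 CPM) and Xdh (629 CPM) in the cluster of 16 cells and Muc15 (1331 CPM) in that of 47. For Csn1s2a 86.4% of the reads in the cluster of 16 came from 1 cell. The clusters of 47 and 16 cells lay between, with Csn3 at 3532 and 5515 CPM. Their median depths were 430481 and 274685 reads, and eGFP was read in 25 and 3 of their cells. These clusters depended on the settings. At resolution 1.2 the clusters of 47, 39, 34 and 16 cells shared 17, 30, 23 and 16 cells with their best match. With 1000 variable genes they shared 20, 28, 18 and 11, and the clusters of 34 and 16 then had the same best match. Ltf did not follow that order, since it was highest in the cluster of 47 cells (4233 CPM) and next in the cluster of 39 (3406 CPM). Hes1 lay between 425 and 702 CPM and Notch1 between 275 and 325 CPM in the 5 clusters. Hey1 reached from 0.149 CPM in the Krt14 cluster to 586 CPM.

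**Figure D3:**
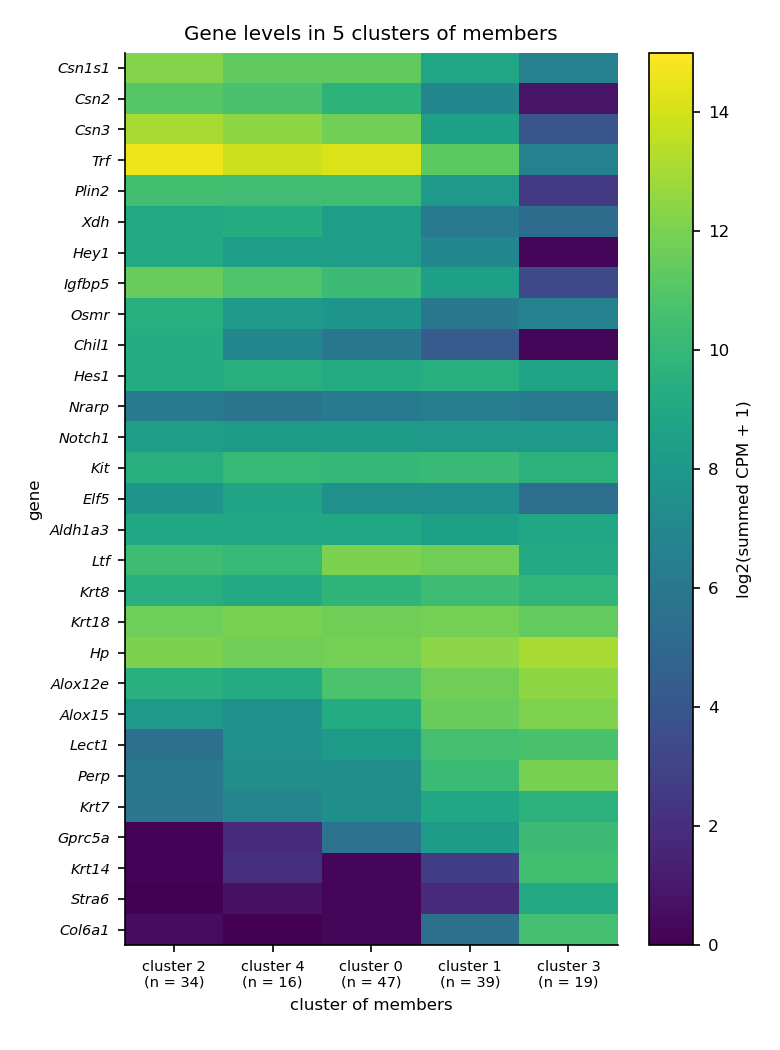
Level of chosen genes in the 5 clusters of members, as log2 of summed CPM plus 1 shown by colour, with 1 column per cluster and 1 row per gene; the genes were chosen after their values were seen. Csn3 runs from 14.3 CPM in the cluster of 19 cells to 8366 CPM in the cluster of 34, while Notch1 stays between 275 and 325 CPM.

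Compared with the 128 other kept cells of the plate, 1408 of 10928 genes (12.9%) were at least 2-fold higher in the members and 2129 (19.5%) at least 2-fold lower, by size alone. Most of the 12 lowest genes that the naming rule gave were genes of leukocytes, such as Ctss, Lsp1 and Cd52, and 52 of the other cells carried leukocyte markers. The lower list genes also included Scd1, Jak2 and Vim. The 69 cells without leukocyte or hormone-sensing markers are the nearer comparison. Against them 14.2% of 10414 genes were at least 2-fold higher in the members and 15.6% lower. These 69 cells held a median of 300017 reads and, after thinning, 1673 genes against 2319 in the members. Epcam reached 10 CPM in 62 of them.

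The ranking against all 128 other cells left out the genes of the rule of membership. Several of its 12 highest genes are given here. Their values against the 69 cells, which are part of the 128, follow. Igsf3, an immunoglobulin-family membrane protein, was at 107.8 CPM in the members and 10.1 CPM in the 69 cells (10.7-fold). The vitamin D receptor Vdr was at 220.9 and 61.5 CPM, with a log2 ratio of 1.83. Its nuclear partner Hr, a corepressor, had a log2 ratio of 2.13. The mitochondrial creatine kinase Ckmt1 was at 2.32, the glycosyltransferase Gyltl1b at 2.14, the secreted protease Klk11 at 2.01 and the cytochrome Cyp4b1 at 2.01. Against all 128 cells Igsf3 was at 3.98, Klk11 at 2.98, Cyp4b1 at 2.96, Hr at 2.90, Ckmt1 at 2.84 and Vdr at 2.61.

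The junction genes Cldn8 and Cldn4 were higher in the members than in the 69 cells, with log2 ratios of 1.15 and 1.07. Of 20 measured keratin and junction genes, with Krt8 of the rule among them, 4 were at least 2-fold higher and 0 lower. Over all 10414 genes 14.2% were higher and 15.6% lower. Of 14 basal genes 12 were at least 2-fold lower, with a median log2 ratio of -4.12. The basal reads of the 69 cells came from few of them: the summed basal level was 3.58 CPM in the median cell and 36915 CPM in the highest. Among Krt5, Krt14, Acta2, Myh11, Oxtr and Trp63 alone, 2 of 69 cells held 2 or more at 10 CPM, against 6 of 155 members. Myh11, a myosin of contractile cells, reached 10 CPM in 2 of the 69 cells and 4 members. Of 11 fibroblast genes 11 and of 10 endothelial genes 10 were lower in the members, and both lists were at 0 in the median cell of either group. Krt14 was at 174 and 265 CPM. Of 11 milk protein genes 2 were at least 2-fold higher in the members and 2 lower, and of 12 Notch targets 1 was higher and 2 were lower. The log2 ratios of the main milk and Notch target genes were -0.19 for Csn3, 0.02 for Csn2, 0.10 for Trf, 0.00 for Hes1 and -0.01 for Hey1. Counted by cells, Hes1 was at 100 CPM or more in 122 of 155 members and 32 of the 69. Lect1 was 692 CPM in the members and 268 CPM in the 69 cells, a log2 ratio of 1.36. Of 12 genes of the G2 and M phase 11 were lower in the members, and 88.4% of the reads of this list in the 69 cells came from 1 cell.

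The same rule kept 217 of 334 control cells, 65.0% (interval 59.6 to 70.1). The control cells had fewer reads, with a median of 220626, and more detected genes, with a median of 2999 against 2319 after thinning. Of 9841 genes 876 (8.90%) were at least 2-fold higher in the members and 648 (6.58%) at least 2-fold lower, and the median log2 ratio of all genes was 0.11. Intervals beside folds are exact Poisson intervals and cover only the counting error of reads taken as independent. They take no account of repeated reads of the same molecule or of spread between cells or animals.

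Milk protein genes were lower in the members as a list: 6 of 12 measured genes were at least 2-fold lower, 0 were higher and the median was -1.35. Csn3 was present in every control cell, at 20.6 CPM in the lowest, 11921 CPM in the median and 77538 CPM in the highest, whereas 53 members were under 10 CPM. Its summed level was 3508 CPM in the members and 14965 CPM in the control, 4.27-fold lower (interval 4.24 to 4.29). Csn1s1 was at 2229 and 11543 CPM, 5.18-fold lower, and Csn1s2a, another alpha casein, at 144.8 and 1469 CPM. Csn2 was at 899.7 and 3002.5 CPM, 3.34-fold lower, and was read in 41.3% of members and 78.8% of control cells after thinning. The cells of the 2 plates overlapped for each casein. Even the casein group of the members, at 5383 CPM of Csn3, lay below the control sum. Lalba, which encodes the lactose synthase subunit alpha-lactalbumin, had 69 reads in the members and 3068 in the control, 1.24 and 62.2 CPM. Wap itself was nearly unread, with 52 reads in 1 member and 69 reads in 4 control cells.

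Genes of milk fat followed in part. Of 18 measured 7 were at least 2-fold lower and 0 higher, with a median of -0.45. The milk fat globule gene Btn1a1 was at 768 and 2438 CPM (log2 ratio -1.66). Scd1, a fatty acid desaturase, was at 141.1 and 422.6 CPM (-1.58), under 2-fold in well columns 1 to 12 alone (-0.83). Acly, which makes cytosolic acetyl-CoA, was at 102.9 and 263.9 CPM. The prolactin receptor Prlr, a gene of the rule, was at 37.8 and 116.7 CPM. Of 11 genes from the prolactin receptor to Stat5, 2 were at least 2-fold lower and 0 higher. They were Prlr and the kinase gene Jak2, which carries its signal (-1.37, and -0.99 in well columns 13 to 24), while Stat5a (-0.74) and Stat5b (-0.92) were lower by less than 2-fold. The peptide hormone gene Cck was at 113.2 and 496.3 CPM, reaching 10 CPM in 62 of 155 members and 159 of 217 control cells. The binding protein gene Igfbp5, known from involution, was at 1282 and 3686 CPM.

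Of 22 luminal progenitor genes 5 were at least 2-fold lower in the members and 1 was higher. Ltf, a gene of the rule in both plates, was at a median of 8933 CPM in the control cells and 7.61 CPM in the members, with sums of 14228 and 2698 CPM (5.27-fold lower). It reached 10 CPM in 206 of 217 control cells and 74 of 155 members, so the ranges overlapped. All 4 progenitor markers were present in 135 control cells (62.2%, interval 55.4 to 68.7), against 30 members. Aldh1a3 was at 463.3 and 1012 CPM (log2 ratio -1.13), and some settings took it under 2-fold. Kit and Elf5 differed by less than 2-fold, with log2 ratios of 0.35 and -0.33. The forkhead gene Foxc1 was the member of the list that was higher, at 106 and 30.6 CPM.

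The choline transporter gene Slc5a7 had 5 reads in all members together and 7589 in the control cells, 0.0901 and 153.9 CPM. It reached 10 CPM in 0 members and 75 control cells and was 1708-fold lower (interval 731 to 5261). Dpysl2, a regulator of microtubules, reached 10 CPM in 29 members and 216 control cells. Its range was 0 to 138 CPM in the members and 0 to 714 CPM in the control, and it was 12.5-fold lower in the sum. Against the 69 other cells of its own plate Dpysl2 was lower too, at 6.61 and 117.1 CPM. Gt(ROSA)26Sor, the transcript of the targeted locus, reached 10 CPM in 9 members and 102 control cells, and 51.0% of its reads in the members came from 1 cell. Its neighbour Setd5 was at 80.9 and 303.0 CPM.

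Lect1 had the largest ratio among the genes that the naming rule placed higher in the members. It reached 10 CPM in 59 of 155 members and 4 of 217 control cells, of which the highest stood at 373 CPM. The sums were 692 and 1.22 CPM, from 38396 and 60 reads, and 65.0% of the control reads came from 1 cell. Alox15 reached 10 CPM in 86 members and 23 control cells and was 22.6-fold higher (interval 21.8 to 23.4). Alox12e was 4.87-fold higher, at 2318 and 475.9 CPM. Of the 7 measured eicosanoid genes these 2 were at least 2-fold higher and 2, Pla2g4a and Hpgd, lower. Fgfbp1, a secreted carrier of fibroblast growth factors, was read in 21.9% of members and 1.84% of control cells after thinning (65.1-fold). The keratin Krt23 was at 143.5 and 5.53 CPM and Gprc5a at 242.8 and 17.6 CPM.

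Haptoglobin (Hp), an acute-phase protein that binds haemoglobin, was widespread among the members. It reached 10 CPM in 142 of 155 members, with a median of 3434 CPM, and in 110 of 217 control cells, with a median of 13.4 CPM. The sums were 4757 and 965.5 CPM, 4.93-fold. In leukocyte-marker cells of the same plate Hp was read in 13 of 52 cells after thinning, against 92.3% of members. Of 21 keratin and junction genes 4 were at least 2-fold higher and 1 lower. Cldn4, a tight junction protein, was at 373.5 and 109.6 CPM, and Perp was 6.98-fold higher at 848 and 121.5 CPM. Matrix genes included Fbn2, an elastic fibre protein, at 361.5 and 54.8 CPM and Spon1 at 175.7 and 41.0 CPM. Of 19 measured matrix and adhesion genes 4 were at least 2-fold higher, and Cd44 was lower.

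**Figure D4:**
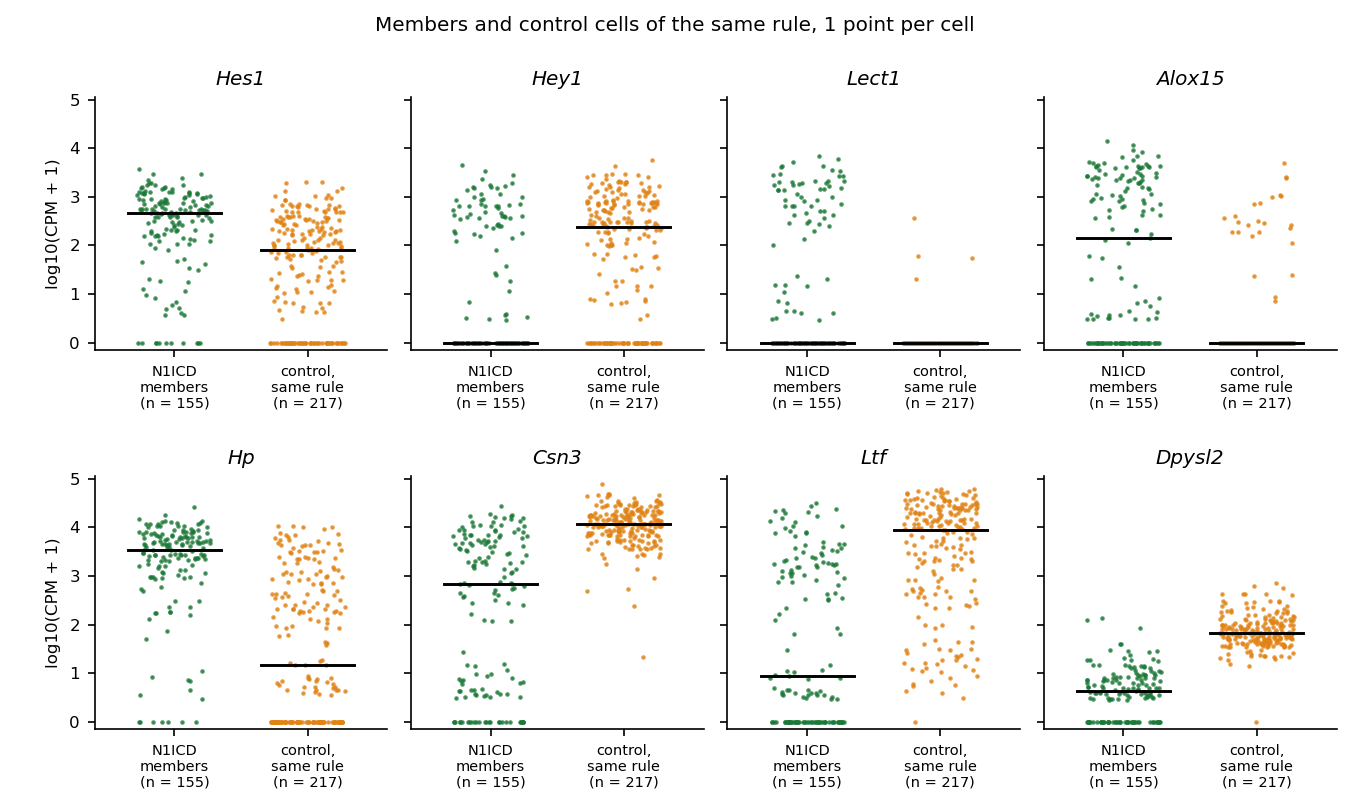
Per-cell levels of chosen genes in the 155 members and the 217 control cells of the same rule, as log10 of CPM plus 1; each point is 1 cell and bars mark medians. Csn3 has a median of 688.3 CPM in members and 11921 CPM in control cells, and Hp 3434 and 13.4 CPM.

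Among Notch genes the 2 main targets stood in opposite directions. Hes1 had a median of 458.8 CPM in the members and 80.8 CPM in the control cells, with maxima of 3773 and 2062 CPM. The sums were 612.5 and 227.6 CPM, 2.69-fold higher (interval 2.63 to 2.75), and 86.5% and 68.2% of cells held a read after thinning. The ranges overlapped. Hey1 was at 296.9 and 602.7 CPM, 2.03-fold lower, and its ratio passed under 2-fold in 8 settings, to a log2 ratio of -0.77 at the smallest. Nrarp, a feedback inhibitor of the pathway, was at 73.1 and 33.5 CPM (log2 ratio 1.10, under 2-fold in 3 settings and 0.70 in well columns 13 to 24). Heyl had 119 reads in 4 members and 0 in the control cells. Of 10 measured targets 3 were at least 2-fold higher and 2 lower, with a median of 0.46. Of 18 genes of the receptors and their machinery 2 were higher and 1 lower: Notch2 was at 170.2 and 80.0 CPM (under 2-fold in 3 settings), Jag1, a ligand, had a log2 ratio of 2.74, and Maml1, a coactivator, -1.48. Notch1 itself differed little, at 294 and 279 CPM.

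Ccnd1 was at a median of 466 CPM in the members and 252 CPM in the control cells, with a log2 ratio of 1.06 in the sums. It was under 2-fold in 7 settings, among them well columns 13 to 24 (0.64) and the members without the Krt14 cluster (0.71). Genes of the G2 and M phase were higher in 6 of 6 measured, but 42.2% of their reads in the members came from 1 cell, against 7.71% in the control. Counted by cells, 11 of 155 members (7.10%) and 10 of 217 control cells (4.61%) held at least 3 genes of that list. Of 5 MHC class II genes 4 were higher. For Cd74, the invariant chain, 57.6% of the reads in the members came from 1 cell, and the log2 ratio of 1.71 turned to -1.36 in well columns 1 to 12. Lists of other cell types held few measured genes: of 5 basal genes 3 were higher and 2 lower, with a median that reversed when the rule's thresholds were halved, and of 9 hormone-sensing genes 2 were higher and 5 lower. Their part in the other differences was not tested. Of 17 involution genes 1 was higher and 4 were lower, and of 17 interferon response genes 1 was higher and 4 were lower. Of 24 genes of oxidative phosphorylation 0 differed by 2-fold in either direction, and the median was -0.05. Of 24 genes of the secretory machinery of the endoplasmic reticulum 1 was lower and 0 higher.

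**Figure D5:**
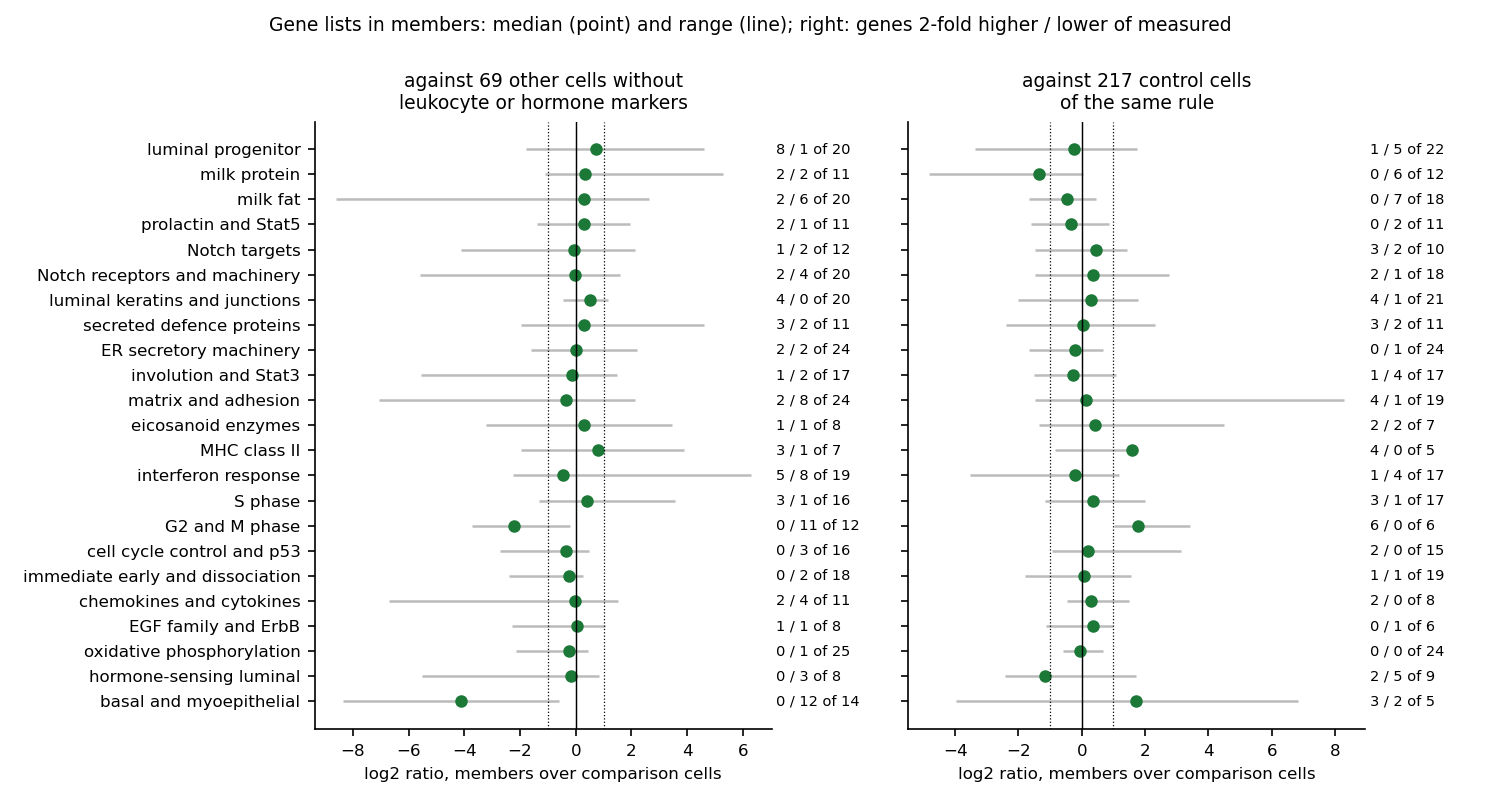
Log2 ratio of summed CPM plus 1 for the gene lists, members over the 69 other cells (left) and over the control cells of the same rule (right); points are list medians, lines run from the lowest to the highest gene, dotted lines mark 2-fold, and the counts beside each row are genes at least 2-fold higher and lower of those measured. Against the control, milk protein genes have a median of -1.35 and oxidative phosphorylation genes of -0.05, against 0.11 over all 9841 genes.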

How the data were processed

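The deposited files hold raw read counts per gene and cell, made by the authors from Smart-Seq2 libraries. The submitters' processing notes name STAR and the build mm10. Versions, counting tool and strand setting are not given here. Of 24490 rows, 492 with a repeated name were summed and eGFP was set apart, which left 23997 names. RefSeq (GRCm38.p6) held 22490 of them. Some member genes may share reads with close paralogs or antisense genes.

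Python 3.11.15, numpy 2.4.6, pandas 2.3.3, scipy 1.17.1, scanpy 1.11.5, leidenalg 0.10.2 and matplotlib 3.10.9 were used. Each cell's reads were scaled to CPM. Groups were compared by log2 ratios of summed CPM with a pseudocount of 1, among genes at 10 CPM or more in either group, and a gene was counted as higher or lower from 2-fold on. Shares of cells were taken after thinning to 50000 reads. Counting intervals are at 95%. Without molecular identifiers, reads of 1 molecule can be counted repeatedly. Members were clustered with the Leiden method (2000 variable genes, 15 components, 15 neighbours, resolution 0.8, and 0.5 for the groups). No doublets were called, since cells were sorted singly. An alternative left out cells with a gene number more than 3 median absolute deviations above the plate's median. The comparison of summed CPM and the totals after thinning were tested on simulated data. The rule, the clustering, the correlations and the naming of genes were not tested in this way.

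The members and the 28 gene lists were chosen with earlier results of these data known. Named genes follow a rule: per comparison the 12 highest and 12 lowest ratios at 20 CPM or more, read in 20% of cells or more after thinning, with 1 direction in the mean over cells, the share of cells and both sets of well columns. Up to 3 list genes in each direction, the 15 most variable genes, up to 6 genes correlated with Kit, Ltf, Csn2, Hes1 and Lect1, and fixed genes were added. Only a selection of these is printed. Genes that describe clusters and other list members were chosen after their values were seen.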

Additional observations from a re-analysis of the deposited data

How the results depend on the processing

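No paired analysis was possible because the labels give well names in place of replicate numbers, which mark positions, and each genotype has 1 plate. Each result was recomputed under 18 settings for the control comparison and 19 for the other kept cells, of which the settings without the Krt14 cluster and without each gene's top cell were chosen after seeing the data. Of 58 named genes past 2-fold against the control, 43 stayed past it in every setting, 14 did not in some and 1 reversed. Of 80 against the other cells, 40 stayed past it, 27 did not in some and 13 reversed. The named genes include the genes of the rule, and Laptm5, Cd53, Ptprc and Coro1a among the reversed are such genes. Genes named by rank had to keep 1 direction in both sets of well columns and in the mean over cells. That they did not reverse in those settings was therefore fixed in advance. The causes of the changes were not tested. Against the control Cd74 turned to -0.094 without members holding a leukocyte marker and to -1.36 in well columns 1 to 12, MHC class II to -0.37 in columns 1 to 12 and the basal list to -1.90 with the thresholds halved. Against the other cells, the G2 and M list turned to 1.31 in columns 13 to 24. Without leukocyte-marker cells the MHC class II list turned to 0.94, H2-DMa to 0.11, Cd52 to 0.20, Il2rg to 0.48, Cybb to 0.62, Selplg to 0.26, Scd1 to 0.13, Ctsb to 0.15, H2-Eb1 to 0.94, Irf7 to 0.29, Laptm5 to 0.12, Cd53 to 0.43, Ptprc to 0.35 and Coro1a to 2.33; that setting removes the cells that carried these genes. Members numbered 90 with 3 or more progenitor markers, 76 in columns 1 to 12 and 79 in columns 13 to 24. The share of members with an Ltf read was 66.7% with 3 or more markers, and that with Lect1 46.1% in columns 1 to 12 and 27.8% in columns 13 to 24, against 51.6% and 36.8%. Counts of genes higher and lower than the control were 1346 and 1111 in columns 1 to 12, 1692 and 1703 from 1 CPM and 305 and 197 from 50 CPM, and 1018 were lower in columns 13 to 24. Against the other cells they were 2398 and 3297 from 1 CPM and 621 and 933 from 50 CPM, and 2336 were higher in columns 13 to 24. Without each gene's top cell the share of higher calls moved from 39.8% to 53.3% (1806 higher, 1583 lower) against the other cells and from 57.5% to 45.8% (667 and 790) against the control. With 1 plate per genotype, depth limits the counting error only.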
